A study of Mus musculus with 24 samples.

Results

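The 8 Kruppel-like factor genes *Klf2*, *Klf3*, *Klf4*, *Klf6*, *Klf9*, *Klf10*, *Klf13* and *Klf15*, were followed through 24 whole kidneys of the megabladder mouse, in which a bladder that does not contract obstructs the urinary tract before birth. The 8 genes belong to the same family, of which 9 other Klf genes are counted apart below. They were chosen with earlier results of these data known, and they are 8 of 27971 genes measured. Each is read by 1 array probe, found through the accession that the array gives for the probe, and each probe passed the filter on dim signal.

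The kidneys came from male mice of matched age, labelled young adult and a few weeks old by the study's methods. The 6 control kidneys are *mgb+/+*, and the 18 *mgb-/-* kidneys were graded by ultrasound as mild (7), moderate (5) or severe (6) according to the share of renal parenchyma still preserved. RNA from the whole organ was labelled with the dye Cy3, and each kidney had its own array. The labels name no agent for any group. Only males were used, and the grade belongs to the kidney and not to the mouse. Whether a mouse gave 1 kidney or both is not stated in the labels, so the p-values measure the spread between kidneys and not between litters or mice.

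Kruppel-like factors are transcription factors with a conserved run of zinc fingers at the end of the protein, which binds GC boxes and CACCC elements in DNA. The parts outside the zinc fingers differ and recruit activators or corepressors, so members can raise or lower the same kind of target. In the kidney the family is known for endothelial quiescence (*Klf2*, *Klf4*), for differentiation of the podocyte (*Klf4*, *Klf6*, *Klf15*) and for responses to glucocorticoid and the circadian clock (*Klf9*, *Klf15*).

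Levels are log2 array intensities from which the 75th percentile of the array was subtracted, so 0 is the signal that 75% of the spots on that array lie below. A probe's level says nothing about its level relative to another gene's probe, and the 8 genes are therefore compared only with themselves across kidneys. A gene is said to have risen or fallen where limma, a linear model fitted to all 27971 genes, gave a Benjamini-Hochberg adjusted p under 0.05. Whole kidneys are mixtures, and a lower share of a cell type cannot be told apart from less of the RNA in each cell.

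In *mgb-/-* kidneys 4 of the 8 genes rose, as described below, and the 250 bases before the start of each are shown because these genes moved in the same direction. The sequences are from RefSeq (GRCm38.p6), where 7 of the 8 members were matched. *Klf2* spans chr8:72318812-72319061 on the plus strand, *Klf4* spans chr4:55532476-55532725 on the minus strand, *Klf6* spans chr13:5861239-5861488 on the plus strand and *Klf13* spans chr7:63938916-63939165 on the minus strand. Capitals mark the GC box GGGCGG, the element CACCC, the E-box CACGTG and the MEF2 element, each on either strand, with matches that overlap or adjoin joined into 1 run.
Klf2: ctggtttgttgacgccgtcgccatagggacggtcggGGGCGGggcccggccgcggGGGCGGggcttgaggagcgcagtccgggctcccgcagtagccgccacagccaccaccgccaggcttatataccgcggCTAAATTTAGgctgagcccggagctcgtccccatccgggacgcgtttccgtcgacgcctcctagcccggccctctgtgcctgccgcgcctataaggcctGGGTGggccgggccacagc
Klf4: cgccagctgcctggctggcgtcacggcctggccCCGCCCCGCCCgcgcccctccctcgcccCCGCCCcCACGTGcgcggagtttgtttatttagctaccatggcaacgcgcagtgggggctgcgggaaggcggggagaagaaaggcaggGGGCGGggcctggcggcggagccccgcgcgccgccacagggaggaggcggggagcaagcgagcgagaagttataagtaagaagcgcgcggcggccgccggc
Klf6: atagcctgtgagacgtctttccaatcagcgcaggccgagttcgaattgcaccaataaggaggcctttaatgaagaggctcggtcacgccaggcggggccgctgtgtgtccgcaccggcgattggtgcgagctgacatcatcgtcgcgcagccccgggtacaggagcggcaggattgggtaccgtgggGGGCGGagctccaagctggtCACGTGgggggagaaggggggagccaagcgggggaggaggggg
Klf13: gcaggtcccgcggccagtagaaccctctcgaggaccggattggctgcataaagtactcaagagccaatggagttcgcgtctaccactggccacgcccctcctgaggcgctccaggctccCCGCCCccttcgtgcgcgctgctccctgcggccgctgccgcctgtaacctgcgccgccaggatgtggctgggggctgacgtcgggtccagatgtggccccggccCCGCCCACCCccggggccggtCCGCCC

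The GC box stood in 6 of the 7 matched promoters and in 32.7% of all 32851 mouse promoter windows of the same length. CACCC stood in 5 of the 7 and in 52.0% of all. The MEF2 element stood in *Klf2* alone among the 7, with its first letter 118 bases before the start, and in 0.508% of all windows. The E-box stood in *Klf4*, 182 bases before the start, in *Klf6*, 43 bases before the start, and at 228 and 172 bases before the start of *Klf15*, against 6.02% of all windows. The cAMP response element TGACGTCA was in none of the 7 and in 1.55% of all windows, and the CArG box was in none of the 7 and in 1.47% of all. A match describes letters in this window and is not evidence that a factor binds there.

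Arrays lay on 3 slides of 8 kidneys, each with 2 control and 6 *mgb-/-* kidneys, and between 55.1% and 70.7% of spots per array stood well above background. A summed log2 level, here and below, is the log2 of a list's marker levels added off the log scale. It is not a sum of log2 levels. Bright probes weigh most in it, so each list is compared only with itself across kidneys. Proximal tubule markers, which should be strong in whole kidney, had summed log2 levels of 9.53 to 9.86 in controls and 7.39 to 9.88 over all kidneys. The lowest was a severe kidney other than severe replicate 4, which was at 9.48. An array stood apart by its outlier spots. Severe replicate 4 had 660 spots that the scanner software marked as outliers, against 102 to 261 on the other 23 arrays. Its summed log2 level of 8 leukocyte markers was 3.11, against 5.06 or more in every control, mild and moderate kidney. Such a sum leaves out markers whose spots were marked, and how many of the 8 had a value on that array was not examined. The *Klf3* and *Klf15* spots of severe replicate 4 were among those marked, so these 2 genes rest on 5 severe and 17 *mgb-/-* kidneys. RNA of the adrenal gland was also present in some kidneys. The summed log2 level of 4 adrenal markers ran from -2.86 to -1.46 in controls and reached 7.58 in mild replicate 4 and 7.52 in moderate replicate 1, while the other 22 kidneys did not exceed 2.04. The *Klf10* comparisons that follow are given with and without severe replicate 4.

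**Figure D1:**
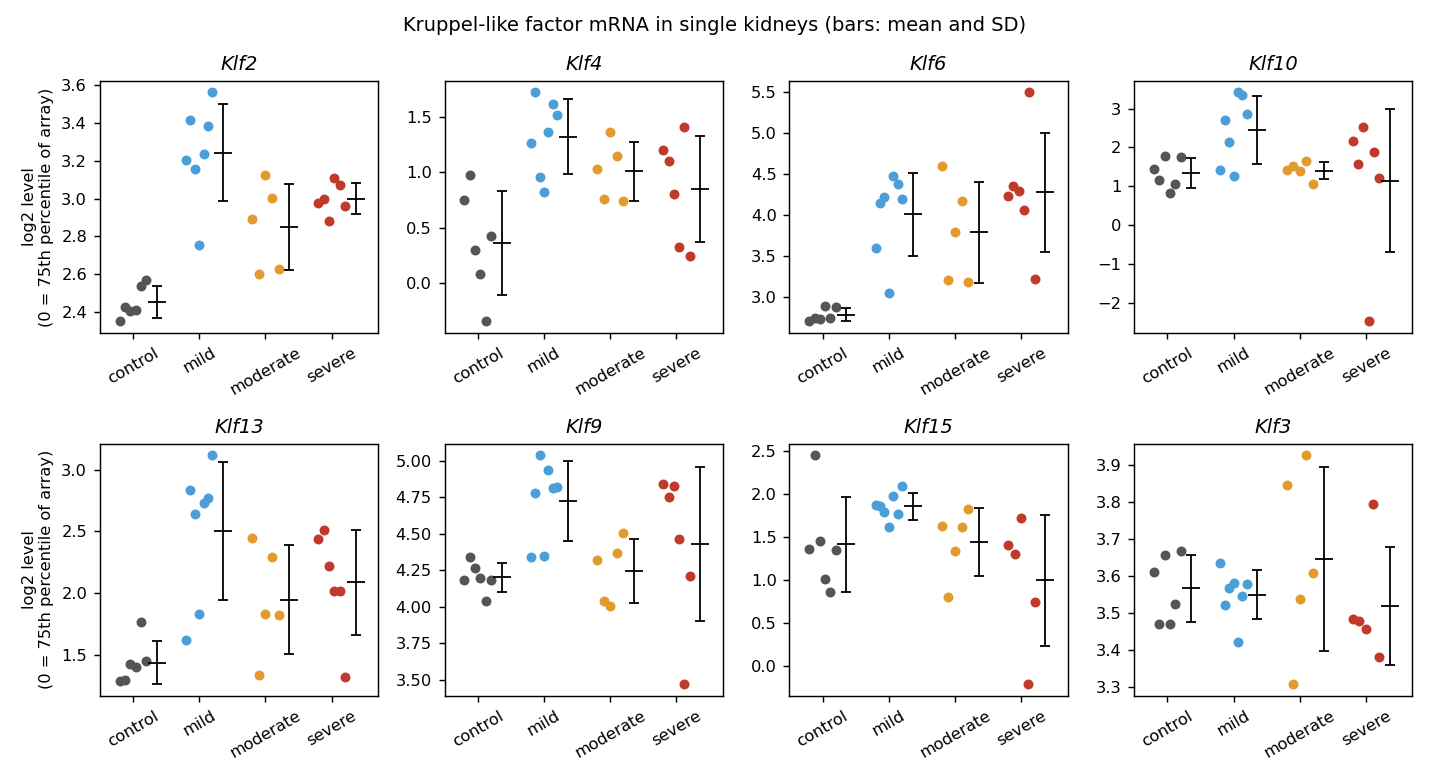
Log2 level of each gene (y axis, relative to the 75th percentile of the array, with a scale of its own in each panel) in single kidneys by group (x axis), with the mean and SD beside the points. All 18 *mgb-/-* kidneys lie above all 6 controls for *Klf2* and *Klf6*, and severe replicate 4 lies at -2.48 for *Klf10*.

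*Klf6*, an early response gene of the family that injured epithelium and podocytes are known to induce, had the largest rise among the 8. Its log2 level in control kidneys was 2.71 at the lowest, 2.75 at the median and 2.89 at the highest. In mild kidneys the corresponding levels were 3.05, 4.20 and 4.47, and in severe kidneys they were 3.22, 4.26 and 5.49. The 5 moderate kidneys had levels of 4.60, 3.21, 3.79, 4.17 and 3.18. Every *mgb-/-* kidney therefore lay above the highest control, whereas the *mgb-/-* grades overlapped one another and spread far more widely (SD 0.51, 0.61 and 0.73 in mild, moderate and severe) than the controls (SD 0.08, n = 6). The log2 level was 1.25 higher in *mgb-/-* than in control kidneys (SE 0.25, limma adjusted p = 0.00350), a 2.38-fold rise. The severe kidney with the highest *Klf6*, replicate 5, had the lowest *Klf9* (3.47) and the lowest *Klf15* (-0.21) of all kidneys.

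*Klf2*, which is induced by laminar flow in endothelium and also keeps T cells and monocytes quiescent, rose less but with little spread. Control log2 levels were 2.35, 2.42 and 2.57 at the lowest, median and highest. Mild levels were 2.75, 3.23 and 3.56, and severe levels were 2.88, 2.99 and 3.11. The 5 moderate kidneys had 2.89, 2.60, 3.12, 3.00 and 2.63. The moderate kidneys came nearest to the controls, and no *mgb-/-* kidney reached down to them. The difference between *mgb-/-* and control was 0.60 on the log2 scale (SE 0.11, limma adjusted p = 0.00228), or 1.52-fold.

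*Klf4*, a factor of growth arrest and of epithelial and vascular differentiation, varied among the controls. Control log2 levels ran from -0.34 through a median of 0.36 to 0.97. Mild levels were 0.83, 1.36 and 1.72 at the lowest, median and highest, and severe levels were 0.25, 0.95 and 1.41. The moderate kidneys had 1.03, 0.76, 1.36, 1.15 and 0.74. Control and *mgb-/-* kidneys overlapped, with 11 of 18 *mgb-/-* kidneys above the highest control and 16 of 18 above the control mean. The rise was 0.71 on the log2 scale (SE 0.20, limma adjusted p = 0.0203), or 1.64-fold.

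*Klf13*, known for its part in the late activation of the chemokine gene *Ccl5* in T cells, rose by 0.77 on the log2 scale (SE 0.21, limma adjusted p = 0.0211), or 1.71-fold. Its control log2 levels were 1.29, 1.41 and 1.77 at the lowest, median and highest, where the highest control, replicate 5, lay well above the next at 1.45. Mild levels were 1.62, 2.73 and 3.12, and severe levels were 1.32, 2.12 and 2.51. The moderate kidneys had 2.45, 1.33, 1.83, 2.30 and 1.82. In all, 15 of 18 *mgb-/-* kidneys exceeded every control, and the 3 that did not came 1 from each grade. For *Klf4* and *Klf13* the call depended on the scaling. When arrays were scaled by their median, which moved the median log2 change of all genes from 0.01 to -0.15, the adjusted p became 0.0758 for *Klf4* and 0.0904 for *Klf13*. Without control replicate 3 it became 0.0529 and 0.0512, and for *Klf4* it became 0.0563 without control replicate 4 and 0.0690 without control replicate 5.

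*Klf10*, also known as TGFβ-inducible early gene, did not pass the test (log2 difference 0.39, SE 0.52, limma adjusted p = 0.662). Control log2 levels were 0.83, 1.30 and 1.77 at the lowest, median and highest. Mild levels were 1.27, 2.72 and 3.42, so that 5 of 7 mild kidneys exceeded every control. The moderate kidneys had 1.43, 1.51, 1.38, 1.64 and 1.06, all within the range of the controls. Severe levels were -2.48, 1.72 and 2.53, where the lowest was replicate 4 and the next lowest was 1.21. Without that array the difference was 0.64 and the adjusted p was 0.170.

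*Klf9* and *Klf15*, both induced directly by the glucocorticoid receptor and both under circadian control, had log2 differences of 0.29 (SE 0.17, limma adjusted p = 0.252) and 0.068 (SE 0.26, adjusted p = 0.896). *Klf9* log2 levels were 4.04, 4.19 and 4.34 at the lowest, median and highest in controls, 4.34, 4.81 and 5.04 in mild kidneys, and 3.47, 4.61 and 4.84 in severe kidneys. The moderate kidneys had 4.32, 4.04, 4.00, 4.37 and 4.51. Mild *Klf9* levels all lay above the controls, by a small margin at the lowest, while moderate and severe levels reached below them.

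*Klf15*, which directs amino acid and glucose metabolism and is known to protect podocytes, had control log2 levels of 0.86, 1.35 and 2.45, where the highest, replicate 2, lay above every other kidney. The mild levels were close together at 1.61, 1.86 and 2.09. The moderate kidneys had 1.63, 0.80, 1.34, 1.61 and 1.82. The 5 severe kidneys with a value had 1.41, 1.30, 1.72, -0.21 and 0.75. All 7 mild kidneys exceeded the control mean of 1.41, and 4 of the 5 severe kidneys lay below it. Severe replicate 1 lay below that mean by less than the rounding, and the mean includes control replicate 2.

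*Klf3*, a repressor that binds CACCC elements and recruits CtBP, showed the smallest difference. Its log2 levels were 3.47 to 3.67 in controls, 3.42 to 3.64 in mild, 3.31 to 3.93 in moderate and 3.38 to 3.80 in severe kidneys. The difference was 0.0018 (SE 0.08, limma adjusted p = 0.991), with a 95% interval from -0.16 to 0.17, so a change of the size seen for *Klf2* lies outside the interval. Its sign differed between scalings.

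In all, 4 of the 8 members rose and 0 fell in *mgb-/-* against control kidneys, where 5.34% of all genes rose and 8% fell. Of the 8, 1 rose at least 2-fold, *Klf6*, against 1.82% of all genes. The members without overlap between control and *mgb-/-* kidneys were 2, *Klf2* and *Klf6*, against 0.347% of all genes. Each slide held both genotypes, and within the 3 slides the log2 difference ran from 1.17 to 1.39 for *Klf6*, from 0.49 to 0.69 for *Klf2*, from 0.59 to 0.82 for *Klf4*, from 0.63 to 0.96 for *Klf13* and from 0.24 to 0.34 for *Klf9*. It ran from -0.46 to 1.08 for *Klf10*, from -0.33 to 0.50 for *Klf15* and from -0.16 to 0.13 for *Klf3*, and so took both signs in these 3 genes. The negative *Klf10* value came from slide 3, which holds severe replicate 4, and without that array it was 0.30, so that *Klf10* was then higher on all 3 slides.

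**Figure D2:**
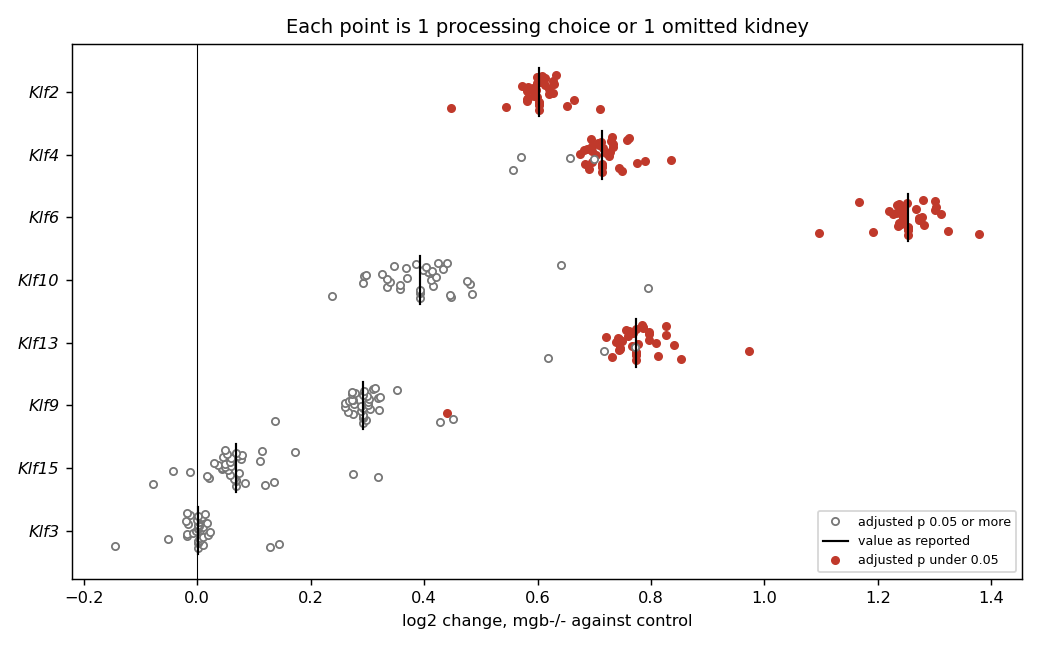
Log2 change of *mgb-/-* against control kidneys (x axis) for each gene (y axis), with 1 point for each processing alternative or omitted kidney and a black line at the value as reported. *Klf2* and *Klf6* keep an adjusted p under 0.05 at every point, *Klf4* and *Klf13* at most of them.

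By grade, 4 members rose in the mild kidneys, 2 in the severe and 0 in the moderate kidneys, and the tests between grades follow. The comparisons of each grade with control share the same 6 control kidneys. In mild kidneys 4 of the 8 rose, where 3.01% of all genes rose and 3.01% fell: *Klf2* by 0.79 (SE 0.11, limma adjusted p = 0.000486), *Klf4* by 0.96 (SE 0.22, adjusted p = 0.0129), *Klf6* by 1.22 (SE 0.29, adjusted p = 0.0160) and *Klf13* by 1.07 (SE 0.23, adjusted p = 0.0101) on the log2 scale. *Klf6* and *Klf13* rose at least 2-fold, where 1.15% of all genes did. *Klf2*, *Klf6* and *Klf9* did not overlap with the controls, where 3% of all genes lay wholly above them. *Klf9* had a difference of 0.52 with an adjusted p of 0.0854, and passed with quantile normalization (adjusted p = 0.0338), the authors' table (0.0208), array quality weights (0.000237), the compared groups alone (0.00862) and without severe replicate 5 (0.0173). For *Klf15* the difference was 0.44 with an adjusted p of 0.368. *Klf10* was 1.12 higher (SE 0.56, adjusted p = 0.258), and without severe replicate 4, which enters the spread that the groups share, the adjusted p was 0.0348. With arrays scaled by their median, *Klf2* alone passed.

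In moderate kidneys 0 of the 8 passed the limma test and 3, *Klf2*, *Klf4* and *Klf6*, were higher at an unadjusted p under 0.05, as were 8.1% of all genes. By the adjusted p 0.647% of all genes rose and 0.554% fell. *Klf6* was 1.01 higher (SE 0.31, adjusted p = 0.0998) and *Klf2* was 0.40 higher (SE 0.12, adjusted p = 0.0914), both without overlap with the controls, where 1.33% of all genes lay wholly above them. Both passed without moderate replicate 5, with adjusted p of 0.0488 and 0.0455. *Klf2* also passed without moderate replicate 2 (adjusted p = 0.0392), and *Klf6* without severe replicate 5 (adjusted p = 0.0405). *Klf9*, *Klf10*, *Klf15* and *Klf3* differed from control by 0.047, 0.072, 0.030 and 0.078 on the log2 scale.

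In severe kidneys 2 of the 8 rose, *Klf6* by 1.49 (SE 0.30, limma adjusted p = 0.00405) and *Klf2* by 0.55 (SE 0.11, adjusted p = 0.00515), where 6.56% of all genes rose and 9.55% fell. *Klf6* alone rose at least 2-fold, as did 2.99% of all genes. Both lay wholly above the controls, as did 2.86% of all genes. *Klf13* was 0.65 higher (adjusted p = 0.0704), and *Klf4* was 0.48 higher (adjusted p = 0.146). *Klf13* passed with quantile normalization (adjusted p = 0.0424), the authors' table (0.0457), array quality weights (0.00761), without mild replicate 1 (0.0479) and without severe replicate 6 (0.0166). *Klf10* was -0.19 against control, and 0.54 without severe replicate 4 (adjusted p = 0.299). *Klf15* was -0.42 against control (SE 0.29, adjusted p = 0.340), -0.21 without control replicate 2 and -0.12 without severe replicate 5. With arrays scaled by their median, *Klf6* alone passed and *Klf2* had an adjusted p of 0.124.

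**Figure D3:**
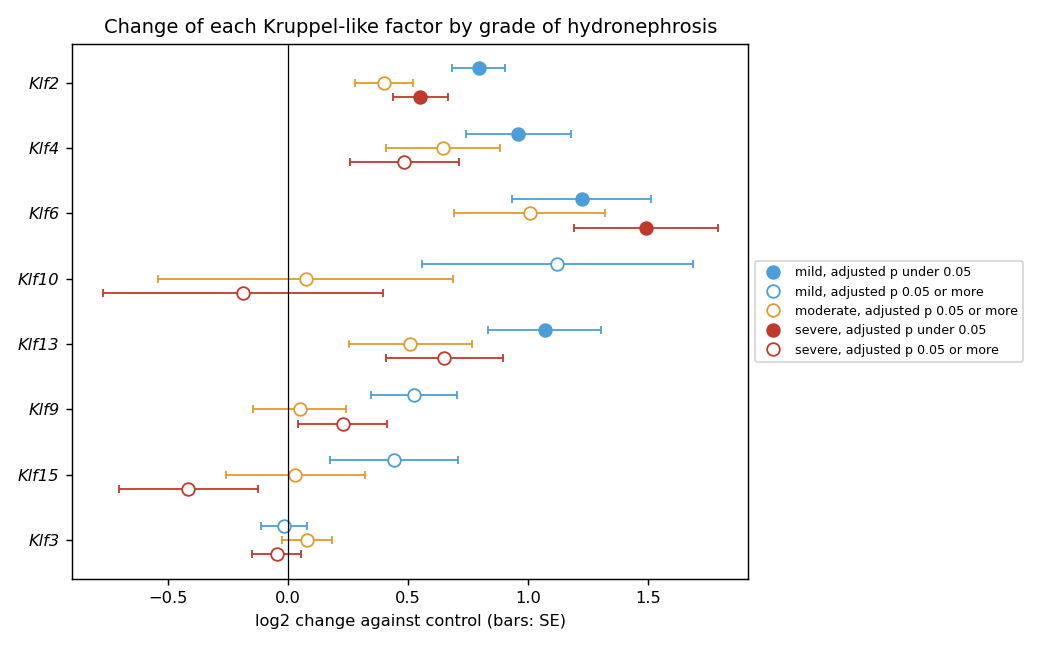
Log2 change of each gene against control (x axis, bars give the SE) in mild, moderate and severe kidneys (colours), with filled circles where the adjusted p was under 0.05. *Klf6* lies between 1.01 and 1.49 in the 3 grades, and the mild value exceeds the severe one in every gene other than *Klf6*.

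Between grades, 0 of the 8 members passed the limma test in severe against mild, moderate against mild or severe against moderate kidneys. At an unadjusted p under 0.05, 4 members (*Klf2*, *Klf4*, *Klf10*, *Klf15*) were lower in severe than in mild kidneys, as were 6.34% of all genes. By the same measure 3 (*Klf2*, *Klf9*, *Klf13*) were lower in moderate than in mild kidneys, as were 4.57% of all genes, and 0 differed between severe and moderate kidneys, where 10.4% of all genes did. By the adjusted p, in severe against mild kidneys 0.533% of all genes rose and 0.0536% fell, in moderate against mild kidneys 0% rose and 0% fell, and in severe against moderate kidneys 0.00358% rose and 0.00358% fell. *Klf15* had a log2 difference of -0.86 between severe and mild kidneys (SE 0.28, adjusted p = 0.234, 95% interval -1.44 to -0.27), and one of -0.56 without severe replicate 5. The log2 difference of *Klf10* was -1.31 (SE 0.56, adjusted p = 0.392), and -0.58 without severe replicate 4 (adjusted p = 0.478). Between severe and moderate kidneys it was -0.26, and 0.46 without that array. For *Klf6* the severe and mild kidneys differed by 0.27 (SE 0.29, adjusted p = 0.766), with a 95% interval from -0.33 to 0.87, which leaves room for a change in either direction, and it was 0.11 without mild replicate 4 and 0.025 without severe replicate 5. Ordered by mean level, *Klf2*, *Klf13* and *Klf9* ran control, moderate, severe and mild, and *Klf4* ran control, severe, moderate and mild. *Klf6* ran control, moderate, mild and severe. No neighbours among the grades in these orders differed by the test.

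Over single kidneys, some members deviated together from their group means. Of 28 pairs, 3 passed a permutation test of Pearson's r (100000 permutations within groups, two-sided, Benjamini-Hochberg over the pairs). *Klf9* and *Klf15* had r = 0.77 (n = 23, adjusted p = 0.00112) and Spearman's rho = 0.78 (adjusted p = 0.00756), with r between 0.58 and 0.87 within the 3 slides and 0.69 without the 2 kidneys farthest from the median. *Klf6* and *Klf13* had r = 0.68 (n = 24, adjusted p = 0.0254) and rho = 0.68 (adjusted p = 0.0223), with r between 0.38 and 0.89 within slides and 0.78 without the 2 farthest kidneys. *Klf4* and *Klf6* had r = 0.56 (n = 24, adjusted p = 0.0254), but rho = 0.43 did not pass (adjusted p = 0.0943), with r between 0.53 and 0.62 within slides and 0.53 without the 2 farthest kidneys. Over the 18 *mgb-/-* kidneys alone (17 for *Klf15*), these 3 pairs passed the permutation test by Pearson's r, each with an adjusted p of 0.0155. None of the 3 passed it by rho there. For *Klf9* and *Klf15* rho was 0.80 (adjusted p = 0.0505), for *Klf6* and *Klf13* 0.66 (0.0569) and for *Klf4* and *Klf6* 0.59 (0.0638). The pairs join genes read on the same arrays, which share depth and tissue makeup. Without severe replicate 4, 7 pairs passed by Pearson's r, among them *Klf6* with *Klf10* and *Klf10* with *Klf13*. For these 2 pairs rho did not pass the permutation test (adjusted p = 0.145 and 0.103), and r was 0.59 and 0.39 without the 2 farthest kidneys.

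**Figure D4:**
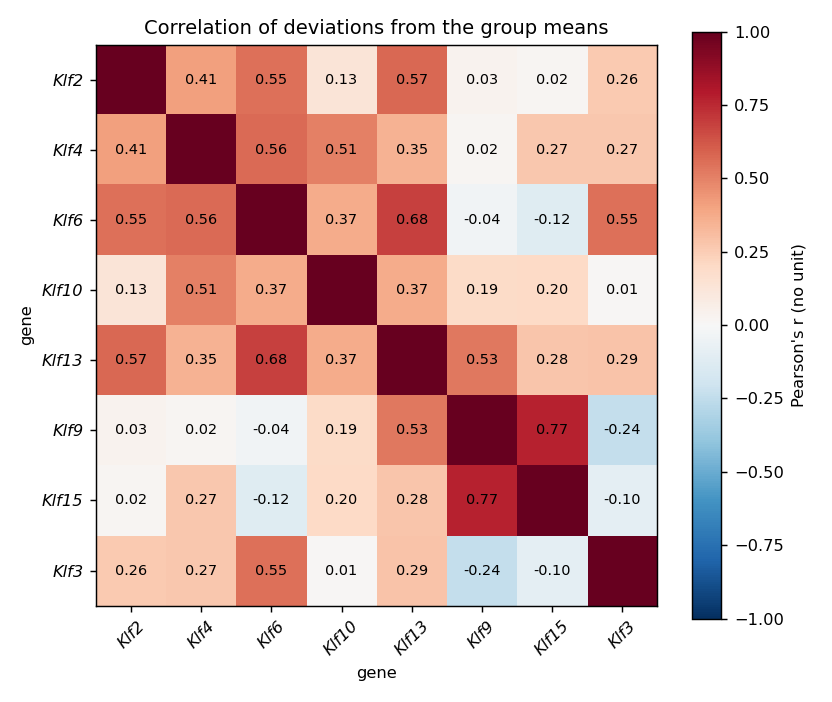
Pearson's r (colour and number) between the deviations of each pair of genes (x and y axes) from the 4 group means over the kidneys with both values. *Klf9* with *Klf15* has the highest r (0.77), followed by *Klf6* with *Klf13* (0.68).

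For each member other than *Klf13*, the 3 genes with the highest r of such deviations are given as a description. They were chosen by that r and so without a test, among genes named through RefSeq with a value in every kidney used. *Klf6* was most like *Arid5a* (r = 0.92), *Plekhg2* (0.91) and *Akap12* (0.88) over 24 kidneys. For *Klf13* the genes given are *Mlxip*, a glucose-sensing transcription factor (0.87), and *Mid1ip1* (0.84). *Klf9* was most like *BB287469* (0.93), *Gm2022* (0.92) and *Lpin1*, a phosphatidate phosphatase (0.90), and *Klf15* like *Herpud1*, a gene of the endoplasmic reticulum stress response (0.88), *Hipk3* (0.87) and *Wdr5* (0.87) over 23 kidneys. *Klf2* was most like *Kcnu1* (0.85), *Dnajb3* (0.85) and *Ly6g6d* (0.84), *Klf4* like *Il20rb* (0.79), *Ror2* (0.78) and *Caprin2* (0.77), and *Klf3* like *Dap* (0.86), *Tspan4* (0.86) and *Gsto1* (0.85). *Klf10* was most like *Rttn* (0.92), *Plek2* (0.92) and *Ets2* (0.89), but without severe replicate 4 these fell to 0.73, 0.70 and 0.56. Some of the genes named in this paragraph have dim probes. The mean log2 level was -3.55 for *Kcnu1*, -3.44 for *Il20rb*, -3.51 for *BB287469* and -3.82 for *Rttn*. How far dim signal enters their r was not tested.

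The rest of the family was counted beside the members. Of 9 other Klf genes 8 could be tested, and 1 rose in *mgb-/-* against control kidneys, where 5.34% of all genes rose and 8% fell. It was *Klf7* (log2 change 0.47, SE 0.13, limma adjusted p = 0.0185), and the median was 0.45 over the 8 against 0.01 over all genes. In severe kidneys 3 of the 8 rose and 1 fell, where 6.56% of all genes rose and 9.55% fell. They are named here after their values were seen. *Klf5*, a factor of proliferating epithelium, rose by 1.97 (adjusted p = 0.00334), *Klf7* by 0.61 (adjusted p = 0.0110) and *Klf16* by 0.59 (adjusted p = 0.0179), and *Klf12* changed by -0.53 (adjusted p = 0.0182). In mild kidneys *Klf7* alone rose, where 3.01% of all genes did, and in moderate kidneys none passed, where 0.647% of all genes rose. Of 9 Sp genes, the sister family with the same kind of zinc fingers, 8 could be tested. *Sp8* rose by 0.87 (adjusted p = 0.0331), and *Sp5*, a Wnt target gene, changed by -1.21 (adjusted p = 0.00705), while the median of the 8 was 0.04.

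Genes induced by the same kinds of stimulus were counted beside the members. Of 15 immediate early genes tested, 13 rose in *mgb-/-* against control kidneys and 0 fell, with a median log2 change of 2.06. *Egr2* rose by 4.15 (SE 0.41, limma adjusted p = 2.61e-06), *Fos* by 3.94 and *Egr1* by 3.64, all more than any of the 8 Kruppel-like factors. Of the 15, 12 rose in mild kidneys, 9 in moderate kidneys and 13 in severe kidneys. Of 7 glucocorticoid-induced genes, 3 rose in *mgb-/-* kidneys (median 1.10), 4 in the mild, 0 in the moderate and 1 in the severe comparison. *Zbtb16* rose by 2.63 (SE 0.62, adjusted p = 0.00940) and *Sgk1* by 1.17. Of 13 circadian genes, 1 rose in *mgb-/-* kidneys, *Per1*, which also stands on the glucocorticoid list, and the median was -0.09.

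Genes that the members are known to regulate were counted against the 5.34% of all genes that rose and the 8% that fell in *mgb-/-* kidneys. Of the 4 endothelial targets of *Klf2* and *Klf4*, 0 passed the limma test in *mgb-/-* kidneys, with log2 changes from 0.20 to 1.40. The 4 were listed without regard to whether the factors raise or lower them. *Nos3*, endothelial nitric oxide synthase, had a log2 change of 0.26 (adjusted p = 0.212), and *Thbd*, thrombomodulin, one of 0.20 (adjusted p = 0.228). *Edn1*, endothelin, had 1.40 (adjusted p = 0.0509) and passed in severe kidneys at 1.58 (adjusted p = 0.0450). Of 5 metabolic targets of *Klf15*, 1 fell, *Acss2*, which makes acetyl-CoA from acetate (log2 change -0.73, adjusted p = 0.0322). *Acss2* was the lowest of the 5, whose median log2 change was 0.34 and highest 0.40. Of 7 corepressors, 1 rose, *Ctbp2*, a partner of *Klf3* (0.32, adjusted p = 0.0154). It was the highest of the 7, whose median was -0.11 and lowest -0.31.

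Markers of cell types were counted in the same comparisons, where 5.34% of all genes rose and 8% fell in *mgb-/-* kidneys. Of 9 endothelial markers 0 passed in *mgb-/-* kidneys, and their summed log2 level ran from 6.35 to 6.66 in control and from 6.02 to 6.81 in *mgb-/-* kidneys across the grades. Of 7 markers of urothelium, the lining of the renal pelvis, 2 rose in the 18 *mgb-/-* kidneys, 0 in the mild, 1 in the moderate and 7 in the severe comparison, and the summed log2 level ran from 2.66 to 4.23 in control and from 6.15 to 7.86 in severe kidneys, where *Klf5* was also higher. Of 5 markers of smooth muscle and stroma 2 rose, of 2 collecting duct markers 1 rose, and of 5 proximal tubule, 3 thick limb and distal tubule, 6 podocyte, 8 leukocyte and 2 liver markers 0 passed. The liver markers nevertheless varied, with a summed log2 level from -3.10 to -2.41 in controls. It ran from -3.94 to 2.73 in mild kidneys, with a median of 1.14. In moderate kidneys it ran from -4.80 to -0.26, and in severe kidneys from -6.20 to 1.27. By grade, and named here after their values were seen, *Slc5a2* of the proximal tubule (log2 change -1.16, adjusted p = 0.0270) and the endothelial marker *Kdr* (-0.39, adjusted p = 0.0235) fell in severe kidneys, and *Wt1* of the podocyte (0.72, adjusted p = 0.0424) rose in mild kidneys. Of 4 adrenal markers 0 passed, but mild replicate 4 and moderate replicate 1, with the highest adrenal sums, had opposite places in *Klf6*, at the lowest mild level (3.05) and the highest moderate level (4.60). Without both kidneys the members that rose were again *Klf2*, *Klf4*, *Klf6* and *Klf13* in *mgb-/-* and in mild kidneys, 0 in moderate, and *Klf2* and *Klf6* in severe kidneys. That fit does not remove all adrenal RNA, because other kidneys with sums above the highest control (-1.46) stayed in it. Among them were mild replicate 2 (1.83), mild replicate 5 (0.80), mild replicate 6 (2.04) and moderate replicate 3 (1.81). The part of urothelial, stromal, adrenal and liver RNA in the changes of the 8 genes was not tested.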

How the data were processed

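The arrays carry 55681 probes. The authors deposited the scanner output of each array from Agilent Feature Extraction 10.10, as given in the submitters' processing notes. Its processed signal is an intensity with background subtracted and spatial trend removed, not normalized between arrays. The authors also deposited a table of normalized intensity values, used only as an alternative, with its normalization method not given in the sources used here. The log2 processed signal minus the array's 75th percentile (496 to 968 intensity units) was used, outlier spots were left out, and no spot was saturated. A probe was kept if 5 or more arrays had it well above background (38848 probes), and 26762 probes were named through RefSeq accessions (GRCm38.p6), whose coordinates were not used for probes. For genes with several probes the brightest was taken.

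Fits used limma 3.58.1 (R 4.3.3). *Mgb-/-* and control kidneys were 2 groups, and the grades and controls were 4 groups that share one spread. A change had an adjusted p under 0.05, and changes of at least 2-fold were counted beside it. The 8 genes, the other lists and the tests were chosen with earlier results of these data known. All 8 members are named, other Klf and Sp genes where they passed in *mgb-/-* against control kidneys, the 3 genes most like each member (for *Klf13*, 1 of them is not reported here), and up to 3 genes of other lists. *Klf5*, *Klf12*, *Klf16*, *Slc5a2*, *Kdr* and *Wt1* were named after their values were seen. The number of arrays limits the precision. The fits and correlations were tested on simulated data. Python 3.11 and matplotlib 3.10.9 drew the figures.

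Alternatives were scaling each array by its median or by quantiles, background correction by normexp (offset 50, on median signals), the authors' table, other filters on dim probes, averaging over probes, a block for slide or for replicate number, array weights, fits on the compared groups alone, other thresholds and omission of each kidney. Added after seeing the data were the correlations and within-slide differences without severe replicate 4 and the fits without the 2 kidneys with the highest adrenal markers. Replicate numbers did not pair the kidneys.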

Additional observations from a re-analysis of the deposited data

Results flagged for a closer look

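In 4 of the 32 groups of a gene and a grade, the highest or lowest kidney lay apart from the others by Dixon's criterion, where chance flags about 1 in 20 groups. *Klf10* in severe replicate 4 was at a log2 level of -2.48, with the next kidney at 1.21. *Klf13* in control replicate 5 was at 1.77, with the next at 1.45. *Klf15* in control replicate 2 was at 2.45, with the next at 1.44. *Klf3* in severe replicate 5 was at 3.80, with the next at 3.49.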

How the results depend on the processing

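Across 36 alternatives *Klf2* and *Klf6* passed in *mgb-/-* against control kidneys in all 36, *Klf4* in 32, *Klf13* in 33, *Klf9* in 1 and *Klf10* in 0. The count of members changed in that comparison was 2 with arrays scaled by their median, 1 with a 2-fold minimum, and 2 to 4 with kidneys left out. In mild kidneys it was 1 with median scaling, 7 with array quality weights and 2 with the 2-fold minimum. In moderate kidneys it was 2 with array quality weights, 2 at an adjusted p under 0.1, and 0 to 2 with kidneys left out. In severe kidneys it was 1 with median scaling, 4 with array quality weights and 1 with the 2-fold minimum. Array quality weights also raised the counts over all 27971 genes. In mild kidneys 3337 rose and 4004 fell, against 842 and 842 as reported. In moderate kidneys 1299 rose and 1899 fell, against 181 and 155, and in severe kidneys 2868 and 4496, against 1836 and 2672. With median scaling 601 rose and 2802 fell in *mgb-/-* kidneys, 241 and 597 in mild, and 791 and 2717 in severe kidneys. The count of correlated pairs was 11 with quantile normalization and 7 without severe replicate 4. Kidneys of the same replicate number did not deviate together (median r = 0.005, from -0.55 to 0.65), and with the replicate number as a block the mild count was 1, with *Klf2* remaining (adjusted p = 0.0518 for *Klf4*, 0.0742 for *Klf6* and 0.0695 for *Klf13*), while *Klf13* in *mgb-/-* against control kidneys had an adjusted p of 0.0563. The cause of these differences was not tested.

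Directions turned as follows. With median scaling, *mgb-/-* against control was -0.079 for *Klf15* and -0.14 for *Klf3*, and moderate against control was -0.075 for *Klf10*, -0.10 for *Klf9*, -0.12 for *Klf15* and -0.069 for *Klf3*. With array quality weights, *Klf3* was -0.051 in *mgb-/-*, *Klf10* was 0.41 in severe against control and 0.41 in severe against moderate, and *Klf15* was 0.030 in severe against control. *Klf3* was 0.078 in mild and 0.14 in severe against control and 0.066 in severe against mild with quantile normalization, and 0.095, 0.18 and 0.081 with the authors' table. Without the 2 kidneys with the highest adrenal markers, *Klf3* was -0.018 in *mgb-/-* and *Klf15* was -0.017 in moderate against control. With kidneys left out, *Klf15* ran from -0.042 to 0.27 and *Klf3* from -0.021 to 0.022 in *mgb-/-*, *Klf3* from -0.037 to 0.0041 in mild, *Klf10* from -0.029 to 0.16, *Klf9* from -0.018 to 0.11 and *Klf15* from -0.080 to 0.24 in moderate, *Klf10* from -0.47 to 0.54 in severe, *Klf3* from -0.10 to 0.0037 in severe against mild, and *Klf10* from -0.54 to 0.46 and *Klf13* from -0.012 to 0.29 in severe against moderate. The filter on all 24 arrays gave no value for *Klf3* and *Klf15*.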
